A study of Mus musculus with 4 samples.

Results

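The expression of 10 genes of metal binding and oxidant defence was examined in cultured mouse astrocytes. The genes were the metallothioneins Mt1, Mt2 and Mt3, and 7 genes of the NRF2 antioxidant programme, Hmox1, Nqo1, Gclc, Gclm, Txnrd1, Srxn1 and Nfe2l2. They were chosen by name, with earlier results of these data known, and each symbol matched exactly 1 of the 25393 genes listed. RNA-seq was performed on primary astrocytes grown from cortex and hippocampus of C57BL/6 pups at postnatal day 1, without treatment. There were 2 libraries labelled WT and 2 libraries labelled KO (tet1-/-, a constitutive deletion of Tet1, which encodes an enzyme that oxidises 5-methylcytosine in DNA). Per the labels, an isolation used 2 pups, the cells grew for about 7 days in a coated flask, were purified by shaking at 260 rpm and were collected 24 h later. The study describes its RNA-seq replicates as biological repeats, and states more of them per genotype than the 2 libraries per label examined here. The labels do not tie each library to a separate culture, and the p-values measure only the spread between these libraries.

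Metallothioneins are small cysteine-rich proteins that bind zinc and copper. The genes Mt1 and Mt2 are switched on by the zinc-sensing factor MTF1 through metal response elements. NRF2, encoded by Nfe2l2, is held low by KEAP1 and, when electrophiles or oxidants block that control, binds antioxidant response elements beside genes of glutathione, thioredoxin and heme metabolism. Astrocytes are a main site of both systems in the brain, and Mt3 is the metallothionein best known from neural tissue.

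The promoter sequences of the metallothioneins and of Srxn1 are shown because these genes had the widest spread between libraries among the members. Each is the stretch of 250 bases upstream of the RefSeq transcription start (GRCm38.p6), 5′ to 3′ on the gene's own strand, which is the plus strand for all 4. Capitals mark matches, on either strand, to a metal response element (TGCACNC or TGCGCNC) or to an antioxidant response element (TGACNNNGC, or the form TGANTCAGC). The windows lie at chr8:94178839-94179088 for Mt1, chr8:94172368-94172617 for Mt2, chr8:94152357-94152606 for Mt3 and chr2:152105274-152105523 for Srxn1.
Mt1: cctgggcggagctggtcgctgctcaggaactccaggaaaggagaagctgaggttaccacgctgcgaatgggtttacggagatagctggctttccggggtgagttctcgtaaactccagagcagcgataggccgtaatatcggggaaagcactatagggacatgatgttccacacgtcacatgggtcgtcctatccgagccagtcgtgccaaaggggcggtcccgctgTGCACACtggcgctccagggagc
Mt2: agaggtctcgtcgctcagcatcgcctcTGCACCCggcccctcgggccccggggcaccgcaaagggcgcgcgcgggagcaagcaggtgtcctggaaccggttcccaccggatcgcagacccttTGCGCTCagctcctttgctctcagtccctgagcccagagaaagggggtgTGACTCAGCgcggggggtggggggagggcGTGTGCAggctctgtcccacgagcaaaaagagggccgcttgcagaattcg
Mt3: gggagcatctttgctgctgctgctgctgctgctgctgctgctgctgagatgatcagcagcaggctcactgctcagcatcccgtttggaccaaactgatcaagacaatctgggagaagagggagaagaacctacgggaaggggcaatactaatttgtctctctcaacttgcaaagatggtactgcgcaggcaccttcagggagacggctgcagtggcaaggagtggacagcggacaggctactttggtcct
Srxn1: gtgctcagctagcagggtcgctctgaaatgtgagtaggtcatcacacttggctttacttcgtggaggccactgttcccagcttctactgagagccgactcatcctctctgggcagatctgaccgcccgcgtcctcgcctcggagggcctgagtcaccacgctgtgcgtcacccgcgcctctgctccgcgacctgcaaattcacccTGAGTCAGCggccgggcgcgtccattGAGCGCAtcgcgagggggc
The Mt2 window held 3 metal response elements and 1 antioxidant element, the latter 79 to 71 bases before the start and matching both forms. The Mt1 window held 1 metal response element, 23 to 17 bases before the start, and the Mt3 window held none of these letters. GENCODE M21 also has Mt1 exons starting at 94179211 and 94179241 and an Mt2 exon starting at 94172860. These lie downstream of the printed windows, and the bases just before them were not searched, so the matches may not be all those of a gene. The Srxn1 window held an antioxidant element of the TGANTCAGC form 45 to 37 bases before the start, and a metal response element 19 to 13 bases before it. Over all 32851 RefSeq windows of this length, 21.4% held a metal response element, 10.2% held TGACNNNGC and 1.02% held TGANTCAGC. Windows were found for 8 of the 10 members. Of the others, Gclm held 2 metal response elements and 1 overlapping TGACNNNGC, Nfe2l2 and 1 of the 3 Txnrd1 windows held TGACNNNGC, and the Nqo1 window held no match. Hmox1 and Gclc had no window. A match describes letters and does not show that a factor binds there.

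Values are normalized counts, which are reads per gene divided by the size factor of the library, and 1 read was worth 0.901 to 1.07 of them. Each library had 18749610 to 22673555 reads on genes, and 3 reads, taken as the detection floor, came to 2.70 to 3.21 normalized counts. Tet1 itself had 266 and 121 normalized counts in WT, against 173 and 463 under the KO label, so its count was not lower under the KO label, and the deleted exons are not given in the labels. These libraries are called KO replicate 1 and KO replicate 2 after their labels only. All 10 astrocyte markers were detected in every library, and their summed FPKM (fragments scaled by gene length and by reads on genes) was 1901 and 1773 in WT, against 3028 and 477 under the KO label. The 14 microglia and macrophage markers summed to 49.98 and 96.8 FPKM in WT, against 7.57 and 7.47 under the KO label, with 0 to 3 of them under 3 reads in a library. The 7 proliferation markers summed to 2.05 and 10.6 FPKM in WT, against 25.1 and 47.7 under the KO label. Xist was at 8.54 and 0.920 normalized counts in WT, against 2896 and 13367 under the KO label, while 4 Y-linked genes summed to 3765 and 1909 in WT, against 0 and 830 under the KO label, so X- and Y-linked transcripts moved with the labels. In bulk RNA, fewer cells of a type and less RNA per cell cannot be told apart.

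The first question was whether the members differed between the WT libraries and the libraries labelled KO. Gclc, the catalytic subunit of the enzyme that makes the precursor of glutathione, was lower in both libraries labelled KO, at 0.469 times the WT mean. The other 9 members had an unadjusted limma p above 0.05. None of the 10 members passed an adjusted p of 0.05 in limma with Benjamini-Hochberg adjustment over 22094 genes, in which 0% of all genes passed. The same count was 0 members and 0% of all genes in the edgeR quasi-likelihood test, and 0 members against 6.68% of 16525 genes in DESeq2. At an unadjusted limma p under 0.05, 1 of 10 members was called, against 13.7% of all genes (9.18% lower and 4.54% higher in the libraries labelled KO), so the members' share was not above the background. Those calls over all genes numbered 3032 in limma, 1004 higher and 2028 lower, 2733 in edgeR and 2775 in DESeq2. Under quantile normalization the limma calls split into 1387 higher and 1550 lower, with the median of all genes moved from -0.07 to 0.07 on the log2 scale. With 2 libraries against 2, an exact two-sided permutation test cannot give a p below 0.33.

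Both libraries labelled KO lay on the same side of both WT libraries for 2 of 10 members, against 47.9% of all genes. For the other 8 members, 1 library labelled KO lay below both WT libraries and 1 above. The share of all genes with that order was not counted, so it cannot be called particular to the members. Gclc was below WT (25.4% of all genes were) and Hmox1 was above it (22.5% of all genes were). The members' median log2 fold change was 0.01, beside -0.07 over all genes. The number of members at an unadjusted p under 0.05 depended on single libraries. It was 0 without WT replicate 1 and 0 without WT replicate 2, 3 without KO replicate 2 (Gclc, Srxn1 and Nqo1) and 6 without KO replicate 1 (Gclc, Txnrd1, Srxn1, Nqo1, Mt1 and Mt3).

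**Figure D1:**
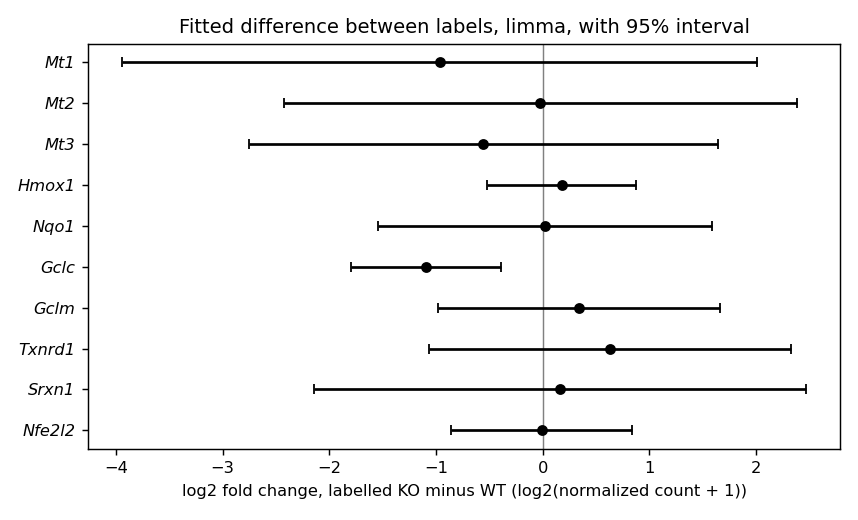
Log2 fold change (libraries labelled KO against WT, limma on normalized count + 1) of each member, with points for the fit and bars for the 95% interval. The interval of Gclc, from -1.80 to -0.39, lies below 0 and those of the other members cross 0.

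Among the metallothioneins, Mt3 and Mt1 were among the most abundant transcripts of these cultures. Mt2 was counted much lower, but its count is uncertain, since an antisense gene covers 73.5% of its exonic bases. By mean FPKM, Mt3 ranked 8 and Mt1 ranked 29 of 25393 genes, while Mt2 ranked 7018. The genes lie in 1 cluster on chromosome 8 on the plus strand, with Mt3 at 94152607 to 94154146, Mt2 at 94172664 to 94173568 and Mt1 at 94179082 to 94180327 (mm10).

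Mt3 had 37892 and 48275 normalized counts in WT, against 72145 in KO replicate 1 and 11687 in KO replicate 2. Mt1 had 13429 and 29136 in WT, against 35186 in KO replicate 1 and 2912 in KO replicate 2. Mt2 had 43.7 and 94.7 in WT, against 152 in KO replicate 1 and 26.1 in KO replicate 2. For all 3 genes the order of the libraries was KO replicate 2, WT replicate 1, WT replicate 2 and KO replicate 1 from low to high, so the 2 libraries labelled KO lay on either side of WT. The fitted log2 fold changes were -0.56 (SE 0.87, adjusted p = 0.812) for Mt3, -0.97 (SE 1.18, adjusted p = 0.751) for Mt1 and -0.02 (SE 0.96, adjusted p = 0.995) for Mt2, by limma with Benjamini-Hochberg adjustment. Their direction rested on 1 library, since without KO replicate 1 the values were -1.87, -2.76 and -1.27, and without KO replicate 2 they were 0.75, 0.83 and 1.23. For Mt2 the sign also differed in edgeR (0.34), DESeq2 (0.36) and under quantile normalization (0.43).

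**Figure D2:**
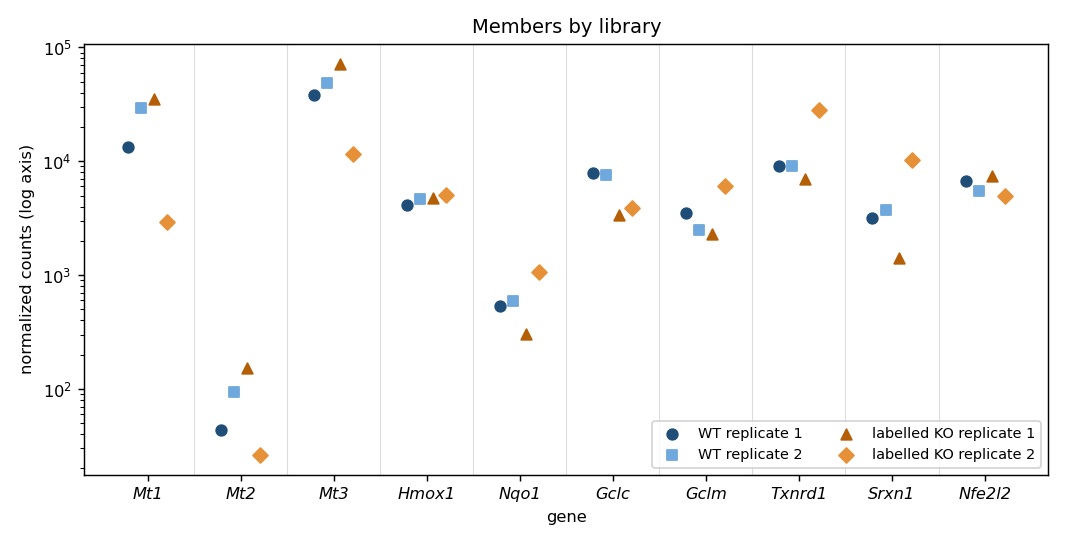
Normalized counts (log axis) of the 10 members in each library, with 1 point per library and the groups shown by marker. Mt1 spreads widest between the 2 libraries labelled KO, at 12.1-fold, and Gclc is the member in which both of them lie below both WT libraries.

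The metallothionein share of all reads on genes was 0.257% and 0.372% in WT, against 0.485% and 0.0724% under the KO label. Per length, Mt3 was 3.30 and 1.94 times Mt1 in WT, against 2.40 and 4.69 times Mt1 under the KO label, and it was the higher of the pair in every library. The summed astrocyte markers were lowest in KO replicate 2 and highest in KO replicate 1. Gfap alone gave 1871 of the 3028 FPKM in KO replicate 1. All 10 markers were lower in KO replicate 2 than in KO replicate 1. For 5 of the 10, both libraries labelled KO lay below both WT libraries (25.4% of all genes did), so KO replicate 1 was not highest for these. For 1 marker both lay above (22.5% of all genes did). The part of these markers in the metallothionein values was not tested.

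Mt2 was measured on few reads, with 41 and 103 in WT, against 142 and 29 under the KO label. Mt1 had 307 and 308 times as many reads as Mt2 in WT, against 231 and 111 times as many under the KO label. An antisense gene, Gm45774, which was singled out after its values were seen, covers 432 of the 588 exonic bases of Mt2 (73.5%) on the opposite strand, at 94170748 to 94173412. It had 14 and 26 reads in WT, against 17 and 12 under the KO label. Whether the counting used strand is not given in the sources used here, so the Mt2 count is uncertain, and the part of this overlap in it was not tested.

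**Figure D3:**
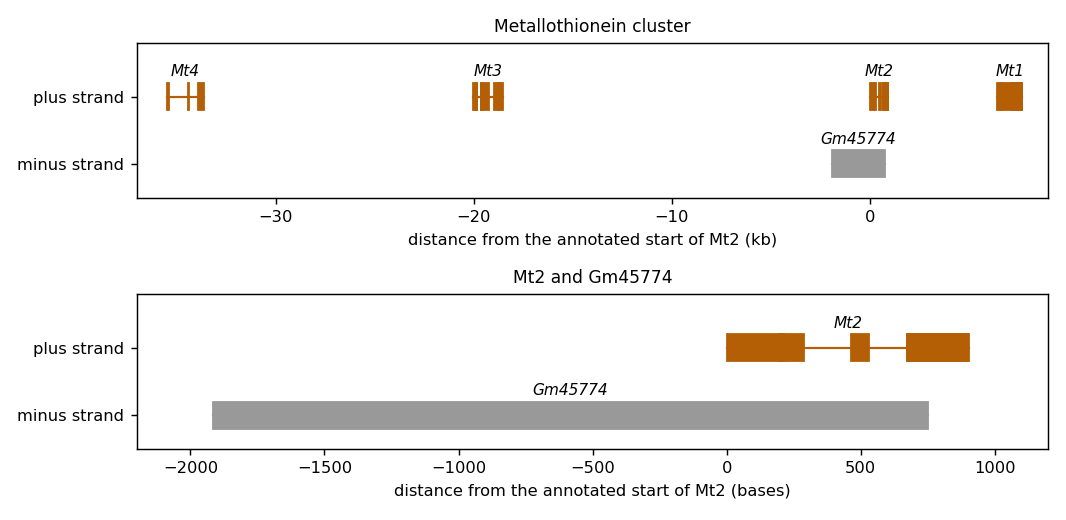
Map of the metallothionein cluster on mouse chromosome 8, with distance from the annotated start of Mt2 on the horizontal axis (kb above, bases below) and exons as boxes on each gene's strand; Mt4 is drawn for its position and was not analysed here. The antisense gene Gm45774 covers 73.5% of the exonic bases of Mt2, and no other drawn gene overlaps Mt1 or Mt3.

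Of the heme and quinone enzymes, Hmox1, which opens the heme ring, was abundant and even across libraries, while Nqo1, which reduces quinones, was not even. Hmox1 (chromosome 8, 75093621 to 75100589) had 4090 and 4672 normalized counts in WT, against 4794 and 5084 under the KO label. All 4 values lay within a narrow range, and the groups did not overlap. The log2 fold change was 0.18 (SE 0.28, 95% interval -0.52 to 0.88, adjusted p = 0.815, limma with Benjamini-Hochberg adjustment). The means were 4381 ± 412 in WT and 4939 ± 205 under the KO label (SD, n = 2 each), a gap wider than either SD, while the interval of the fit included 0. Nqo1 (chromosome 8, 107388225 to 107403206) had 533 and 594 in WT, against 306 in KO replicate 1 and 1069 in KO replicate 2. The WT values lay between the other 2, and the log2 fold change was 0.02 (SE 0.62, adjusted p = 0.992). Without KO replicate 1 it was 0.92 and without KO replicate 2 it was -0.88.

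Gclc and Gclm encode the catalytic and the modifier subunit of glutamate-cysteine ligase, and their values followed different patterns across the libraries. Gclc (chromosome 9, 77754535 to 77794485) had 7890 and 7594 normalized counts in WT, against 3402 and 3859 under the KO label. The WT mean was 7742 ± 210 and the mean of the libraries labelled KO was 3631 ± 324 (SD, n = 2 each), so the groups did not overlap and the gap was wider than either spread. The log2 fold change was -1.09 (SE 0.28, 95% interval -1.80 to -0.39, unadjusted p = 0.00956 by limma, adjusted p = 0.234), and the 4 differences between single libraries ran from -1.21 to -0.98. The adjusted p was 0.271 in edgeR and 0.0814 in DESeq2, both with Benjamini-Hochberg adjustment. Leaving out any 1 library gave log2 fold changes from -1.19 to -1.004, but without WT replicate 1 or WT replicate 2 the unadjusted limma p was above 0.05 (0.0744 and 0.0672). Cell type markers also moved with the labels. All 14 microglia and macrophage markers were lower in the fit, 11 at an unadjusted limma p under 0.05 (9.18% of all genes were). For 13 of these 14, both libraries labelled KO lay below both WT libraries (25.4% of all genes did). Of the 10 astrocyte markers, 5 lay below and 1 above. All 7 proliferation markers lay above (22.5% of all genes did). The part of these markers in the Gclc value was not tested.

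Gclm (chromosome 3, 122245557 to 122270732) had 3522 and 2493 normalized counts in WT, against 2311 in KO replicate 1 and 6106 in KO replicate 2. KO replicate 2 was the highest library and KO replicate 1 the lowest, and the log2 fold change was 0.34 (SE 0.53, adjusted p = 0.809, limma with Benjamini-Hochberg adjustment). It was -0.36 without KO replicate 2 and 1.04 without KO replicate 1. Per length, Gclc was 3.74 and 5.09 times Gclm in WT, against 2.46 and 1.06 times Gclm under the KO label. Of the 50-base stretches in Gclm transcripts, 4.58% also occur in other genes, among them Ppia and its copies, so a small part of its reads could be shared.

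Txnrd1, which reduces thioredoxin, and Srxn1, which repairs over-oxidised peroxiredoxins, were much higher in KO replicate 2 than in any other library. Txnrd1 (chromosome 10, 82833951 to 82897712) had 9163 and 9064 normalized counts in WT, against 7034 in KO replicate 1 and 28136 in KO replicate 2. Srxn1 (chromosome 2, 152105516 to 152111376) had 3141 and 3698 in WT, against 1410 in KO replicate 1 and 10335 in KO replicate 2. KO replicate 1 was the lowest library for both genes, so the WT libraries lay between. The log2 fold changes were 0.63 (SE 0.67, adjusted p = 0.714) for Txnrd1 and 0.16 (SE 0.92, adjusted p = 0.952) for Srxn1, by limma with Benjamini-Hochberg adjustment. They were -0.37 and -1.27 without KO replicate 2 and 1.63 and 1.60 without KO replicate 1. The summed proliferation markers were also highest in KO replicate 2, at 47.7 FPKM. In KO replicate 1, where Txnrd1 and Srxn1 were lowest, these markers were at 25.1, above the 2.05 and 10.6 of WT. The part of these markers in the Txnrd1 and Srxn1 values was not tested.

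Nfe2l2 itself (chromosome 2, 75675513 to 75704641) had 6731 and 5521 normalized counts in WT, against 7377 in KO replicate 1 and 4961 in KO replicate 2, so the groups overlapped. The log2 fold change was -0.01 (SE 0.34, 95% interval -0.86 to 0.84, adjusted p = 0.993, limma with Benjamini-Hochberg adjustment). It was lowest in KO replicate 2 and highest in KO replicate 1, as the metallothioneins were, whereas Nqo1, Gclm, Txnrd1 and Srxn1 had these ends the other way round. These are levels of RNA, and the NRF2 protein was not measured here.

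The members were next compared within a label. Between the 2 libraries labelled KO, 7 of 10 members differed by more than 2-fold, against 28.8% of 12868 genes (those whose mean reached 50). The members were chosen with earlier results of these data known, so this contrast is descriptive only. The 3 metallothioneins were higher in KO replicate 1 (14.3% of all genes were), with Mt1 12.1-fold, Mt3 6.17-fold and Mt2 5.82-fold higher there. Nqo1, Gclm, Txnrd1 and Srxn1 were higher in KO replicate 2 (14.5% of all genes were), from 2.64-fold for Gclm and 3.49-fold for Nqo1 to 7.33-fold for Srxn1, with Txnrd1 between. Hmox1, Gclc and Nfe2l2 differed by less than 2-fold. Between the WT libraries, 2 of 10 members were past 2-fold, against 10.7% of all genes, and these were Mt1 at 2.17-fold and Mt2 at 2.17-fold, both higher in WT replicate 2. With 1 library on each side, these folds have no test. The 7 NRF2-linked members together took 0.175% and 0.161% of reads in WT and 0.120% and 0.295% in KO replicates 1 and 2, opposite in order to the metallothioneins. That sum does not describe each of the 7. Txnrd1 had the most reads of them in KO replicate 2, at 31216, and Nfe2l2 was lower there than in KO replicate 1.

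**Figure D4:**
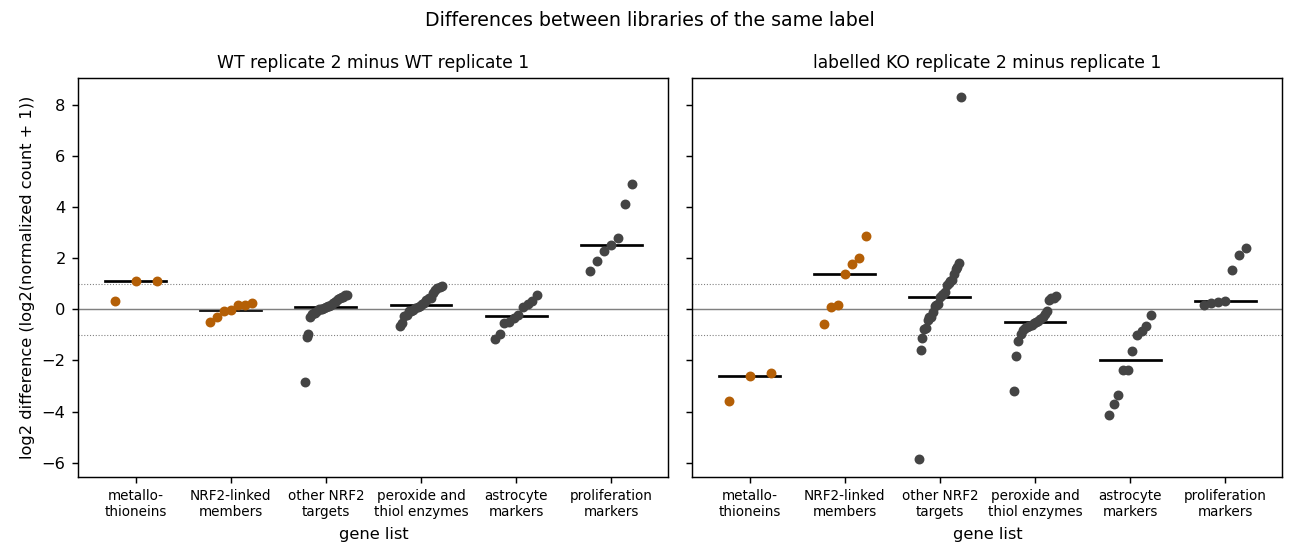
Log2 difference between replicates of 1 label (WT on the left, KO label on the right) for the genes of 6 lists, with 1 point per gene, a bar at each median and dotted lines at 2-fold. The 3 metallothioneins lie below 0 for KO replicate 2 minus KO replicate 1, and 6 of the 7 NRF2-linked members lie above it.

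Related genes of both systems were described by count and median. Over all genes, 13.7% had an unadjusted limma p under 0.05 (4.54% higher and 9.18% lower), and the median log2 fold change was -0.07. The called shares of the related lists ran from 9.09% for the NRF2 regulators to 20% for the other NRF2 targets. Of 11 NRF2 regulators, 0 were higher and 1 was lower at an unadjusted limma p under 0.05, with a median log2 fold change of 0.00. The one called was Nfe2l3, a relative of NRF2, at 79.0 and 78.2 normalized counts in WT, against 16.1 and 35.2 under the KO label (log2 fold change -1.68, adjusted p = 0.347, limma with Benjamini-Hochberg adjustment). Sqstm1, which encodes a selective autophagy receptor that binds KEAP1, had the highest level of that list and a log2 fold change of -0.47. Of 25 other NRF2 targets, 1 was higher and 4 were lower, with a median of -0.16. Idh1, which makes NADPH, was higher (log2 fold change 0.94), and the 3 largest of the lower ones were Blvrb (-1.65), the ferritin heavy chain Fth1 (-1.63) and Osgin1 (-1.22). Fth1 had 100810 and 120140 normalized counts in WT, against 39390 and 32096 under the KO label, with an adjusted p of 0.218 in limma and 0.00326 in DESeq2.

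Within the libraries labelled KO, 8 of these 25 targets were past 2-fold higher in replicate 2 (14.5% of genes whose mean reached 50 were). In replicate 1, 3 of the 25 were past 2-fold higher (14.3% of those genes were). The widest case was Slc7a11, the cystine carrier that feeds glutathione synthesis, which was singled out after its values were seen. It had 799 and 381 normalized counts in WT, against 23.5 in KO replicate 1 and 7975 in KO replicate 2, a range that spanned both WT libraries.

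Of 20 zinc and copper genes tested, 0 were higher and 3 were lower at an unadjusted p under 0.05, with a median of 0.21. These were Cp, the copper-carrying ferroxidase ceruloplasmin (log2 fold change -4.23), and the metal ion importers Slc39a8 (-2.84, adjusted p = 0.0106 in DESeq2) and Slc39a14 (-1.28). Cp had 108480 and 57043 normalized counts in WT, against 2946 and 5964 under the KO label, with adjusted p = 0.102 in limma and 1.65e-10 in DESeq2. Mtf1, the factor behind the metal response of Mt1 and Mt2 (named here after its values were seen), was not among them, at 843 and 1083 normalized counts in WT, against 956 and 846 under the KO label.

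Of 20 superoxide, peroxide and thiol enzymes, 1 was higher and 3 were lower, with a median of -0.01. Gpx3, a secreted glutathione peroxidase, was lower at 5423 and 4634 normalized counts in WT, against 309 and 417 under the KO label (log2 fold change -3.80, adjusted p = 0.0777 in limma and 4.13e-15 in DESeq2). Gpx1 (-1.03) and the mitochondrial superoxide dismutase Sod2 (-1.03) were also lower and Gpx8 (0.84) was higher, and Prdx6 had the highest level of the list. Of 18 heme and iron genes, 0 were higher and 3 were lower (Trf, Slc11a1 and the heme exporter Flvcr1), with a median of -0.25, and Fech had the highest level. In DESeq2 the adjusted p was 0.00086 for Trf and 0.0041 for Flvcr1. Trf had 37.3 and 93.8 normalized counts in WT, against 0 and 2.70 under the KO label, values at or below the detection floor. Of 10 glucocorticoid-induced genes, which share inducers with metallothioneins, 1 was higher (Dusp1, log2 fold change 1.66) and 0 were lower, with a median of 0.67, and Ddit4 had the highest level. By DESeq2 the one call of that list was Sgk1 (adjusted p = 0.0256, named after its values were seen), while Dusp1 had an adjusted p of 0.0988. In limma, Sgk1 had a log2 fold change of 2.12 and an adjusted p of 0.386. It had 155 and 220 normalized counts in WT, against 314 in KO replicate 1 and 2073 in KO replicate 2, so its size rested mostly on KO replicate 2.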

How the data were processed

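Filtered paired-end reads were mapped by the authors to mm10, and the aligner, counter, strand setting and annotation release are not given in the sources used here. For each gene, the deposited table gives a signal value in every library. The name of the table speaks of FPKM, but 100% of the values were whole multiples of 1 read (within 0.01 reads), so they are counts divided by a size factor. The deposited log2 fold changes, p-values and group means, and other columns such as position, hold the authors' own comparison or annotation, and the fold changes, p-values and means were not used.

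Whole reads and FPKM were computed from these values and the gene lengths. The planned limma test on log2(normalized count + 1) was kept as the main test (limma 3.58.1, R 4.3.3, variance trend, mean of at least 1, 22094 genes), and edgeR 4.0.16 and DESeq2 1.42.0 were run on the reads. The 3 tests were run on simulated counts without change and with known changes, the latter all larger than that of Gclc. The simulated spread was set lower than that of these data (edgeR common biological coefficient of variation 0.470). That run therefore does not show how the tests perform on these libraries. Groups and replicate numbers came from the sample titles. Same-numbered libraries did not deviate together (correlation -0.08). Named genes were the members, Tet1, Xist with the Y-linked sum, the astrocyte and microglia markers, and from each related list at most 3 genes higher and 3 lower at an unadjusted p under 0.05 plus the gene of highest level. Members and lists were chosen with earlier results of these data known. Positions of all 10 members matched GENCODE M21. Plots used Python 3.11.15 and matplotlib 3.10.9. The floor of 3 reads covers counting error only, and the intervals cover the spread between libraries.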

Additional observations from a re-analysis of the deposited data

How the results depend on the processing

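Over 15 alternatives, no member passed an adjusted p of 0.05. Over all genes, that count was 0 in limma and 1104 in DESeq2, and the unadjusted count ran from 1029 without WT replicate 1 to 4925 without KO replicate 1. Members at an unadjusted p under 0.05 ran from 0 to 6 when 1 library was left out. The members' median was 0.23 in DESeq2 and 0.19 in edgeR, and from -0.11 to 0.10 without 1 library. Signs turned for Mt2 (0.36 in DESeq2, 0.34 in edgeR, 0.019 with median log ratio scaling, 0.028 with a pseudocount of 10 and 0.43 under quantile normalization), for Nfe2l2 (0.010 in DESeq2 and 0.031 with median log ratio scaling), for Nqo1 (-0.027 with equal sums) and for Fech (-0.11 under quantile normalization and -0.043 with equal sums). Without 1 library, values ran from -2.76 to 0.83 for Mt1, -1.27 to 1.23 for Mt2, -1.87 to 0.75 for Mt3, -0.36 to 1.04 for Gclm, -0.37 to 1.63 for Txnrd1, -1.27 to 1.60 for Srxn1, -0.88 to 0.92 for Nqo1, -0.30 to 0.28 for Nfe2l2 and -0.62 to 0.63 for Fech. Where 1 library was left out, the lone library of a group was assumed to vary like the other group. The cause was not tested. Gclc and Hmox1 kept their direction throughout. With the replicate block, 2583 genes had an unadjusted p under 0.05 and 0 an adjusted one, and 1 member was called, so the block changed no call on the members. Mt2 had the fewest reads of the members, at 29 to 142.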
